A study of Mus musculus with 16 samples.

Results

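The arrays labelled STAT4 knockout were set against the wild-type arrays hybridised beside them, 4 against 4 and 8 of the 16 arrays in all. Members were the arrays titled STAT4-/- and those titled WT, joined into 4 pairs of the same tissue and diet: spleen on control diet, spleen on high-fat diet, bone marrow on control diet and bone marrow on high-fat diet. Each array read the RNA of CD11b+ cells pooled from 5 mice labelled male, fed either a control diet or a high-fat diet for 3 months. The 4 spleen arrays shared 1 slide and the 4 marrow arrays another, so every pair was read within a slide. The labels state the wild-type and STAT4-/- genotypes without naming a strain, an age or how the allele was made, and no group was measured on a second array. The remaining 8 arrays, labelled STAT6-/- and HDC-/- in the same tissues and diets, lay on the other 2 slides. They entered the common fit and are cited only where they bear on a value.

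STAT4 is a transcription factor that the interleukin-12 receptor activates through the Janus kinases JAK2 and TYK2. In T cells and natural killer cells it drives interferon-gamma production, and it also responds to interleukin-23 and type I interferon. Interferon-gamma in turn acts on CD11b+ myeloid cells through short palindromes in promoters called gamma-activated sites (GAS), and induces guanylate-binding proteins, immunity-related GTPases, chemokines and the machinery of antigen presentation. CD11b, the product of Itgam, is carried by monocytes, macrophages and granulocytes, and also by natural killer cells and some dendritic cells.

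Levels are given as log2 signal relative to the 75th percentile of the array, and a pair difference is the STAT4-labelled array minus its wild-type partner, so that 1 unit is a 2-fold change. On these 8 arrays 70.3% to 85.3% of probes were well above background, and no spot was saturated. Itgam was well above background on all of them with each of its 3 probes, and its brightest probe read between 3.81 and 6.05. The median pair difference over the 28781 features tested was 0.39 in spleen on control diet, 0.65 in spleen on high-fat diet, -0.24 in marrow on control diet and 0.00 in marrow on high-fat diet. Against this, the median of the mean difference over the 4 pairs was 0.20, and 0.04 after quantile normalization.

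The signal of the targeted gene did not follow the label. Stat4, read by 1 probe, measured 1.33, 1.19, 0.17 and 0.18 on the wild-type arrays in the order spleen control, spleen high-fat, marrow control and marrow high-fat. On the STAT4-labelled arrays it measured 0.56, 3.51, 0.41 and 2.74. Both high-fat STAT4-labelled arrays thus lay above every wild-type array, and both control-diet ones lay inside or near the wild-type range. The pair differences were -0.77, 2.32, 0.25 and 2.56, with a mean of 1.09 (SD 1.62, n = 4) and an exact two-sided sign-flip permutation p of 0.375, where 0.125 is the smallest p that 4 pairs allow. The other 8 arrays read Stat4 between -0.89 and 1.20. No label or file header says whether the probe lies inside the deleted part of the gene, so the arrays are called STAT4-labelled throughout.

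Other genes also separated the control-diet from the high-fat STAT4-labelled arrays. Stat6, read by its brightest probe, was 3.76, 3.44, 3.60 and 4.14 on the wild-type arrays and 2.57, 3.95, 2.34 and 4.12 on the STAT4-labelled arrays. Its pair differences of -1.19 and -1.26 on control diet, against 0.51 and -0.02 on high-fat diet, gave a mean of -0.49 (SD 0.88, n = 4; exact two-sided sign-flip permutation p 0.375). On the 4 arrays labelled STAT6-/- this probe read 2.79, 2.54, 3.04 and 2.69. Both other Stat6 probes were also lower in the control-diet pairs, by -0.71 and -1.08 for one and -0.96 and -2.42 for the other. The mean signal of the Y-linked genes was between 0.10 and 0.35 on the wild-type arrays and -0.26 and -0.61 on the high-fat STAT4-labelled arrays, but -6.68 and -5.57 on the control-diet STAT4-labelled arrays. Xist, the RNA that coats the inactive X chromosome, was -2.93 and -4.20 on those arrays, -6.81 and -5.44 on the high-fat STAT4-labelled arrays and -9.26 to -6.90 on wild type. The Xist probe used was well above background on 3 STAT4-labelled arrays and 0 wild-type arrays. A second, brighter Xist probe was left out for want of a usable spot on some array. It was well above background on 4 STAT4-labelled and 3 wild-type arrays, with pair differences of 4.93, 1.28, 3.18 and 1.56. The HDC-labelled arrays on control diet read -8.39 and -7.79 for the Y-linked genes and -3.55 and -3.55 for Xist. The control-diet STAT4-labelled and HDC-labelled pools read against their male label in these genes. Results are given for control-diet and high-fat pairs apart wherever the 2 kinds of pair differ.

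**Figure D1:**
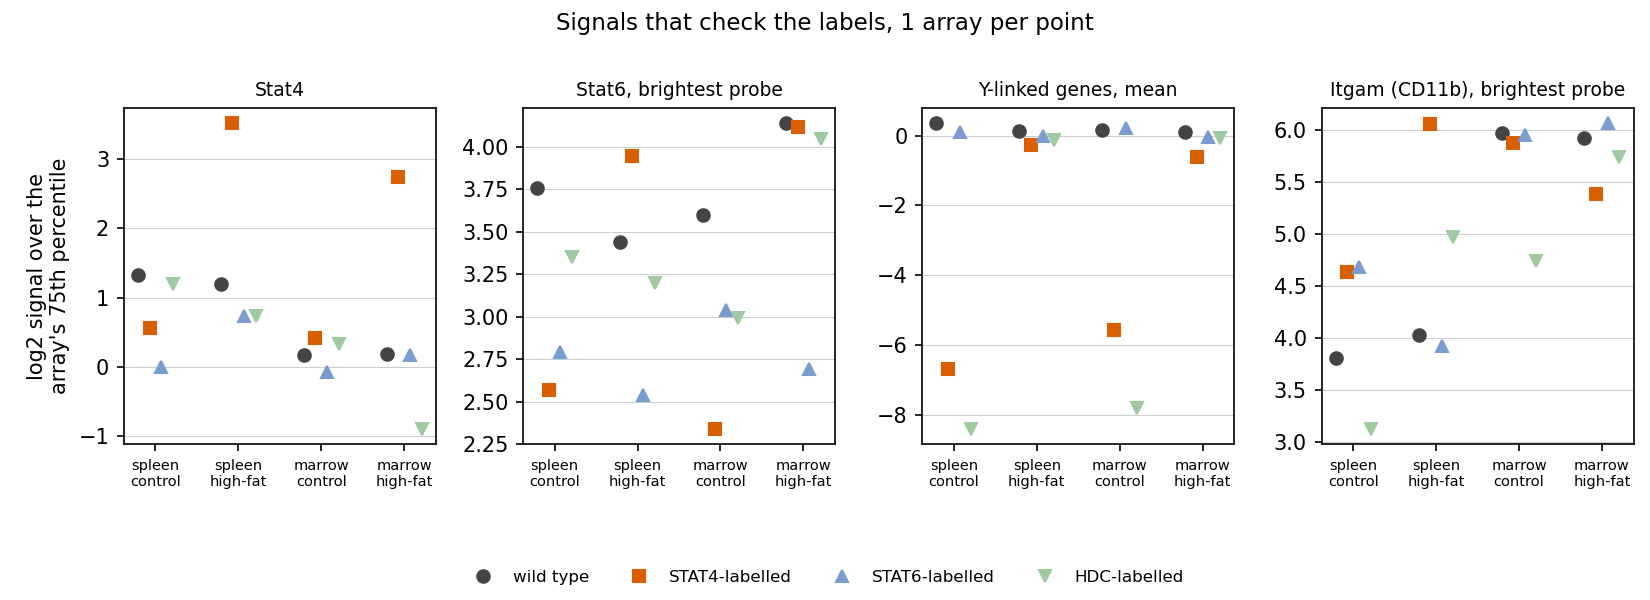
Log2 signal over the 75th percentile of the array (vertical axis) of Stat4, Stat6, the mean of the Y-linked genes and Itgam, for each tissue and diet (horizontal axis), with 1 point per array and a symbol for each labelled genotype. The STAT4-labelled squares reach 3.51 and 2.74 for Stat4 on high-fat diet, and fall to -6.68 and -5.57 for the Y-linked genes on control diet.

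Which genes differed between STAT4-labelled and wild-type cells in both tissues and on both diets? Under limma with Benjamini-Hochberg adjustment, 5 of 28781 features (0.0174%) passed an adjusted p of 0.05, with 3 higher and 2 lower. All 5 kept their direction in each of the 4 pairs. At an unadjusted p under 0.05 the same fit gave 2465 higher (8.56%) and 398 lower (1.38%) features, a split that became 681 higher and 761 lower after quantile normalization. A fit of the 8 arrays alone, with the pair as a block, called 1 feature, Oas1a. Fits without the control-diet pairs or without the high-fat pairs called 0 features in either case.

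Oas1a, an enzyme that makes the 2′-5′ oligoadenylates that activate RNase L against viral RNA, had the largest difference of the called genes. It read -7.90, -6.86, -6.56 and -6.95 on the wild-type arrays, none of them well above background, and 2.79, 3.83, 3.63 and 3.10 on the STAT4-labelled arrays. The groups were far apart, and by this probe, the brighter of 2, the rise was at least 1017.6-fold (fitted difference 10.41, SE 0.49, limma adjusted p 3.19e-05). The dimmer probe, also not well above background on any wild-type array, gave a smaller mean difference of 7.48 (SD 1.13, n = 4), and normexp with quantile normalization gave 7.02 for the brighter one (limma adjusted p 0.0036). The bound sets the mean of the brighter arm against the dimmest signals that count as above background on the wild-type arrays. Oas1f, a neighbour in the same family, rose from -4.15, -3.01, -2.94 and -2.87 to 1.44, 1.17, 2.21 and 1.62, a difference of 4.85 (SE 0.46, limma adjusted p 0.00601). Ctps2, which makes CTP from UTP, rose from -0.57, -0.52, 0.07 and 0.06 to 2.65, 3.01, 3.58 and 3.23, or 10.2-fold (difference 3.35, SE 0.24, limma adjusted p 0.000575). No value of either gene overlapped between the groups.

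The 2 called genes that fell were Gm10421, a predicted gene, and H2-Q8, a nonclassical MHC class I gene of the Qa region. Gm10421 read -0.50, -1.54, 1.00 and 0.48 on wild type and -5.61, -5.04, -5.73 and -5.21 on the STAT4-labelled arrays (difference -5.26, SE 0.33, limma adjusted p 0.00022). H2-Q8 read 3.24, 3.48, 2.81 and 2.58 on wild type and 0.00, -0.92, -1.16 and -1.12 on the STAT4-labelled arrays (difference -3.83, SE 0.40, limma adjusted p 0.0122). Again no array overlapped. Oas1f and H2-Q8 belong to families of near-identical copies, whose transcripts a short probe may share, so which copy gave the signal is uncertain. Oas1f lost its call without either marrow array on control diet (adjusted p 0.0834 and 0.0705), without the STAT4-labelled spleen array on high-fat diet (0.0795) and without the wild-type marrow array on high-fat diet (0.0584), and H2-Q8 lost its call in 6 of the 8 fits that left out 1 array (adjusted p 0.0705 to 0.149).

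The same wild-type arrays also served the other labelled knockouts, for which the fit called 9 (0.0313%, STAT6-labelled) and 44 (0.153%, HDC-labelled) features. Against them, Oas1a was higher by 10.38 on the STAT6-labelled and 11.43 on the HDC-labelled arrays, Oas1f by 5.06 and 5.98, and Ctps2 by 3.33 and 2.96. H2-Q8 was lower by -3.99 and -3.52 and Gm10421 by -7.10 and -7.16. Set directly against the mean of the STAT6- and HDC-labelled arrays, which lie on other slides, the STAT4-labelled arrays differed by -0.50 for Oas1a (SE 0.43, limma adjusted p 0.598), 0.21 for Ctps2 (SE 0.21, adjusted p 0.659) and -0.07 for H2-Q8 (adjusted p 0.95). Gm10421 was 1.87 higher on the STAT4-labelled arrays than on those 8 (limma adjusted p 0.028). It read only -8.53 to -6.21 on those 8, and on their marrow slide 59.9% to 68.7% of probes were well above background. For signals this dim the size of the difference is uncertain. The comparison with the mean of those 8 arrays called 1280 features (4.45%), of which 1267 were higher, and slide and labelled genotype cannot be told apart in it.

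**Figure D2:**
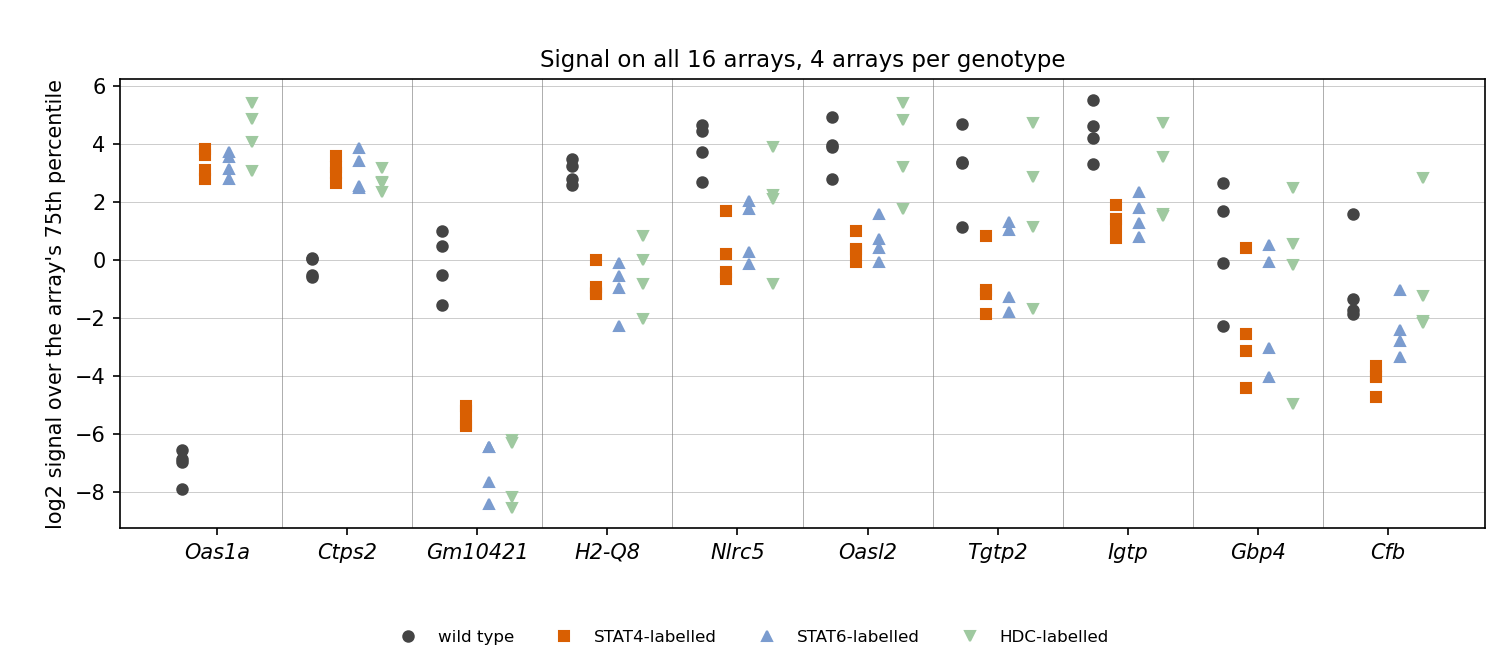
Log2 signal over the 75th percentile of the array (vertical axis) of 10 genes on all 16 arrays, with 4 points for each labelled genotype, 1 per array. For Oas1a the wild-type circles lie between -7.90 and -6.56 and the STAT4-labelled squares between 2.79 and 3.83, while the STAT6- and HDC-labelled arrays lie on the side of the STAT4-labelled ones.

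A wider view comes from the features that differed at least 2-fold the same way in all 4 pairs. There were 36 higher (0.125%) and 61 lower (0.212%), of which 25 and 36 carry a gene symbol. In 268 features (0.931%) every STAT4-labelled array lay above every wild-type array, and in 221 (0.768%) below. Among the named lower genes were the GTPases Tgtp2, Igtp, Irgm1, Irgm2, Iigp1, Ifi47, Gbp2, Gbp2b, Gbp4, Gbp6 and Gbp8, the chemokine Cxcl9, the checkpoint ligand Cd274, the peptide transporter Tap1 and the class I regulator Nlrc5. None of these passed the adjusted threshold over all features, and those outside the naming rule were picked after their values were seen.

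**Figure D3:**
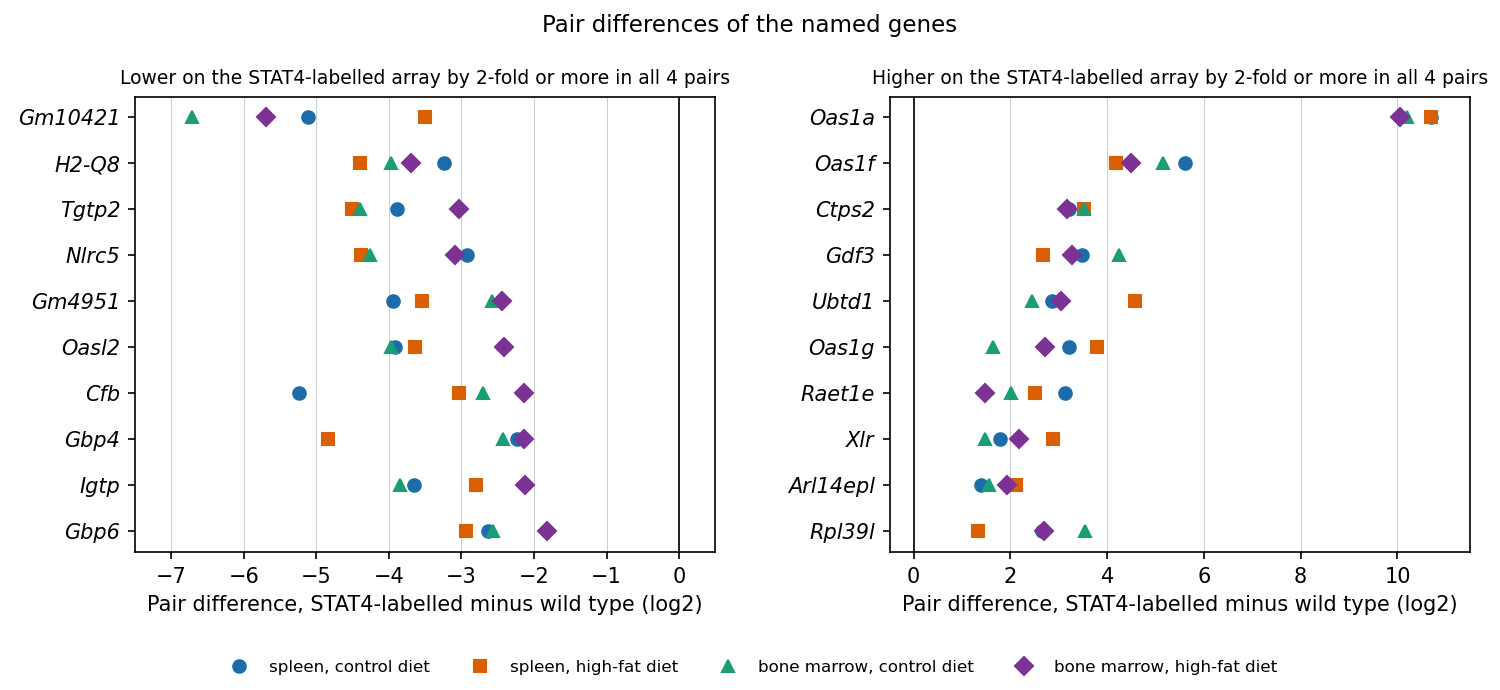
Pair differences (STAT4-labelled minus wild type, log2, horizontal axis) of the 10 lower and 10 higher genes with the largest smallest difference among those at least 2-fold apart in all 4 pairs. A symbol stands for each pair, and every point of a gene lies on the same side of 0.

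The interferon-gamma response list held 24 genes, all tested. Of these, 0 were called, 20 were lower at an unadjusted p under 0.05 (1.38% of all features were) and 0 higher. In all 4 pairs 20 of the 24 were lower (4.42% of all features), 10 were at least 2-fold lower (0.212%) and 11 had every STAT4-labelled array below every wild-type array (0.768%). The median difference of the list was -1.97, against 0.20 over all features. By pair its median was -2.18, -2.13, -1.57 and -0.88, so the marrow pair on high-fat diet was the least apart. At least 2-fold lower were 19 of 24 members in spleen on control diet (3.1% of all features), 18 in spleen on high-fat diet (10.8%), 19 in marrow on control diet (8.92%) and 10 in marrow on high-fat diet (1.87%). At least 2-fold higher were 0, 0, 0 and 1 member in these pairs, where 29.3%, 36.4%, 4.6% and 3.48% of all features were.

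Between 17 and 19 members were lower at an unadjusted p under 0.05 when any 1 of the 8 arrays was left out. Without the STAT4-labelled spleen array on high-fat diet, 19 members were lower. Fits without the control-diet pairs gave 8 lower members and without the high-fat pairs 16, both with fewer arrays and residual degrees of freedom than the others. At least 2-fold lower were 18 members in both control-diet pairs, where 0.987% of all features were, and 10 in both high-fat pairs, where 0.49% were.

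The immunity-related GTPases, which attack the vacuoles of intracellular parasites and bacteria, had pair differences below 0 throughout. Igtp read 5.54, 4.23, 4.63 and 3.33 on the wild-type arrays and 1.90, 1.43, 0.78 and 1.19 on the STAT4-labelled arrays, with no overlap and a difference of -3.11 (SE 0.49, limma adjusted p 0.126). Tgtp2 read 4.71, 3.35, 3.39 and 1.16 on wild type and 0.82, -1.16, -1.01 and -1.87 on the STAT4-labelled arrays (difference -3.96, SE 0.66, limma adjusted p 0.136). Every wild-type array was above every STAT4-labelled one for it as well. Grouped by symbol after the values were seen, all 8 immunity-related GTPase genes and all 10 guanylate-binding protein genes tested were lower in all 4 pairs (4.42% of all features were). Of them, 7 and 5 were lower by at least 2-fold (0.212% of all features), with median differences of -2.38 and -2.32. Members of both families are close copies, and probes may read more than 1 of them.

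Gbp2, a guanylate-binding protein that coats pathogen vacuoles, was lower by -3.91, -2.76, -3.99 and -1.82 in the 4 pairs. Gbp4 read 2.65, 1.70, -0.11 and -2.26 on wild type and 0.41, -3.14, -2.54 and -4.40 on the STAT4-labelled arrays, where the groups overlapped across tissues although each pair differed the same way. Its difference was -2.91 (SE 0.83, limma adjusted p 0.41). Gbp6 gave -2.49 (SE 0.68, limma adjusted p 0.391). Gm4951, a predicted gene, gave pair differences of -3.94, -3.55, -2.58 and -2.44.

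Promoters of 5 of these genes are shown because 4 of them were lower together and Oas1a went the other way. Each run is the 250 bases before the annotated start in RefSeq (GRCm38.p6), 5′ to 3′ on the strand of the gene, and capitals mark matches to the palindrome TTCNNNGAA of a GAS or to the core of an interferon-stimulated response element (ISRE), taken as GAAA, any 2 bases and GAAA again, or its reverse complement of TTTC, any 2 bases and TTTC.
Igtp, chr11:58199306-58199555, plus strand: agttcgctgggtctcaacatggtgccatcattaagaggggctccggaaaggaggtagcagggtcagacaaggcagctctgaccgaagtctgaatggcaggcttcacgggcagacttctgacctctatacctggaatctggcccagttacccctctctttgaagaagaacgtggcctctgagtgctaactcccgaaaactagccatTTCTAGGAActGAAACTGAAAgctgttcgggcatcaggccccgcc
Irgm2, chr11:58214727-58214976, plus strand: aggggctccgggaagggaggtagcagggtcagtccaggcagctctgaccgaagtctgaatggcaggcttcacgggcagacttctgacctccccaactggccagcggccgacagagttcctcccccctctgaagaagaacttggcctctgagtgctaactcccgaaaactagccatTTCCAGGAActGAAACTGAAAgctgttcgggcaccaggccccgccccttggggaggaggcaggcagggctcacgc
Tgtp2, chr11:49064213-49064462, minus strand: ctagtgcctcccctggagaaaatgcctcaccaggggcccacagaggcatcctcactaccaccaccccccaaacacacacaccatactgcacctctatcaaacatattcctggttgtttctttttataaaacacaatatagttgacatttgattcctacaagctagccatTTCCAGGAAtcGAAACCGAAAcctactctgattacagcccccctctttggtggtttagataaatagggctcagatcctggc
Gbp2, chr3:142620413-142620662, plus strand: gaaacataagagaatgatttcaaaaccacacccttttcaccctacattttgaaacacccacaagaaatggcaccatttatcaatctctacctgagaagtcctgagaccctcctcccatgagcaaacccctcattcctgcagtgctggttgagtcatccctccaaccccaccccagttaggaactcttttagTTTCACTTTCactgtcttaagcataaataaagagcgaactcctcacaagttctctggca
Oas1a, chr5:120907526-120907775, minus strand: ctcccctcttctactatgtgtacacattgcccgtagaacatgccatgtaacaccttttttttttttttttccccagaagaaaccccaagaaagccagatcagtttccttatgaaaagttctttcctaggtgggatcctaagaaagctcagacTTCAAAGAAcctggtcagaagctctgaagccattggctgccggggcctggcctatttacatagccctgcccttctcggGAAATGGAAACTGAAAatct
In Igtp, Irgm2 and Tgtp2 the GAS match stood 2 bases before the ISRE core match, starting 45, 75 and 81 bases before the start site. Gbp2 held 1 ISRE core match on the opposite strand and no GAS match in this window. Oas1a held 1 GAS match and 2 overlapping ISRE core matches, the latter starting 20 and 14 bases before the start, and in none of the 5 promoters did a GAS match overlap an ISRE core match.

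Over all 27025 genes with a promoter entry, 8.13% held a GAS match and 3.46% an ISRE core match in the same window, on either strand. Both matches were held by 124 of the 27025. Of the 36 named genes at least 2-fold lower in all 4 pairs, 23 had an entry. Of these, 5 (21.7%) held a GAS match, 10 (43.5%) an ISRE core match and 4 held both. The shown Igtp, Irgm2 and Tgtp2 are among those 4, so the shown promoters are not typical of the 23. The Igtp and Irgm2 runs also share long stretches of the same bases, so their matches are not independent. Of the 25 named genes at least 2-fold higher, 20 had an entry, with 1 GAS match (5%) and 2 ISRE core matches (10%). In the interferon-gamma response list, 8 of 17 genes with an entry held a GAS match and 10 an ISRE core match. These shares describe letters in a window, and the lists were chosen with the differences known.

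None of Nlrc5, Tap1, Psmb9 and Psmb8, genes of MHC class I presentation, passed the adjusted threshold. Nlrc5, the transactivator of class I genes, read 4.65, 3.73, 4.46 and 2.69 on wild type and 1.71, -0.66, 0.20 and -0.40 on the STAT4-labelled arrays (difference -3.67, SE 0.50, limma adjusted p 0.0978), with no overlap. Tap1, which carries peptides into the endoplasmic reticulum, was lower by -2.43, -1.89, -2.23 and -1.05. The immunoproteasome subunits Psmb9 and Psmb8 differed by -1.30 (SE 0.26) and -0.88 (SE 0.26), and limma's adjusted p was 0.132 for Tap1, 0.247 for Psmb9 and 0.42 for Psmb8. Of 20 class I heavy-chain genes tested, grouped by symbol after the values were seen, 8 were lower and 0 higher in all 4 pairs (4.42% of all features were lower), and 4 were lower by at least 2-fold (0.212%), namely H2-Q8, H2-Q10, H2-T10 and H2-M11. The classical chains H2-K1 and H2-D1 differed by -0.55 (SE 0.22) and -0.56 (SE 0.26), and neither passed the test.

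Other members of the interferon-gamma list included Cxcl9, which attracts T cells and was lower by -2.13, -3.38, -1.5 and -2.03, and Irf1, a transcription factor induced by interferons, which differed by -1.08 (SE 0.25). Cd274, which encodes PD-L1, was lower by -1.63, -4.03, -2.33 and -1.18. The direction was not shared by all 4 pairs for Cxcl10, Ciita, Irf8 and Nos2, whose pair differences had both signs. Cfb, complement factor B, fell outside the list and gave -5.24, -3.03, -2.71 and -2.14 (mean difference -3.28, SE 0.83, limma adjusted p 0.378).

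The type I interferon response list had 23 of 25 genes tested. Only Oas1a of the list was called, and it rose. Of the members, 8 were lower at an unadjusted p under 0.05 (1.38% of all features were), 19 were lower in all 4 pairs (4.42%) and 4 were at least 2-fold lower in all 4 (0.212%), with a list median of -1.17. Oasl2, a ubiquitin-like relative of the oligoadenylate synthetases, read 4.93, 3.99, 3.92 and 2.80 on wild type and 1.02, 0.35, -0.05 and 0.39 on the STAT4-labelled arrays (difference -3.48, SE 0.50, limma adjusted p 0.0978). The nucleic-acid sensor Zbp1 and the apoptosis factor Xaf1 differed by -2.10 (SE 0.41) and -2.12 (SE 0.51). Isg15 and Ifit1, standard reporters of type I interferon, differed by -1.17 (SE 0.64) and -1.65 (SE 0.85). By pair the list medians were -1.65, -0.53, -1.47 and -0.55, more than 2-fold lower on control diet and less so on high-fat diet.

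The oligoadenylate synthetases were split. Oas1a and Oas1f rose, and Oas1g was at least 2.23-fold higher without passing the test (difference 2.84, SE 0.46, limma adjusted p 0.128; not well above background on any wild-type array). Oas2 and Oas3, which share a cluster with them, were lower by -1.16 (SE 0.45) and -1.29 (SE 0.52). Of the 11 synthetase genes tested, 3 were higher (7.62% of all features were) and 4 lower (4.42%) in all 4 pairs.

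Both interferon lists were also low on the STAT6-labelled arrays against the same wild-type arrays, with medians of -1.85 for interferon-gamma and -1.04 for type I. On the HDC-labelled arrays the medians were -0.85 and 0.12. The mean level of the interferon-gamma list was 1.91, 0.99, 0.65 and -0.11 on wild type and -0.08, -0.94, -1.12 and -1.0 on the STAT4-labelled arrays. Among the wild-type arrays it was itself lower on high-fat than on control diet in each tissue. Set against the mean of the STAT6- and HDC-labelled arrays, Oasl2 was -1.81 lower on the STAT4-labelled arrays (limma adjusted p 0.0461), where against wild type it was -3.48 on the STAT4-labelled, -3.24 on the STAT6-labelled and -0.10 on the HDC-labelled arrays, while Nlrc5 (adjusted p 0.149), Tgtp2 (0.145) and Igtp (0.297) did not pass.

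The interleukin-12 and STAT pathway itself had no called member. Of the 7 ligand genes tested, Il23a was lower in all 4 pairs (-1.27, -1.64, -1.08 and -0.42; mean difference -1.10, SE 0.50, limma adjusted p 0.502). Il12a, the p35 subunit of interleukin-12, differed by -0.57 (SE 0.47) and Il18 by -0.36 (SE 0.61). Ifng had pair differences of -0.65, -4.75, 1.24 and 0.09, so its mean of -1.02 (SE 0.77) came from the spleen pair on high-fat diet. Il27 and Ebi3, which form interleukin-27, differed by 0.17 and 0.15, and Ifnb1 by -0.79 (SE 0.77).

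No receptor gene kept its direction in all 4 pairs. Il12rb1, the shared chain of the interleukin-12 and interleukin-23 receptors, differed by -0.64 (SE 0.29) and Il12rb2, the chain that docks STAT4, by -0.15 (SE 0.32). Il23r differed by -0.13, Il18r1 by 0.28 and Il18rap by 0.21. The interferon receptor chains Ifnar1, Ifnar2, Ifngr1 and Ifngr2 lay between -0.21 and 0.17. Among the Janus kinases, Tyk2 was lower in all 4 pairs (-0.85, -1.01, -0.58 and -0.23; mean difference -0.67, SE 0.24, limma adjusted p 0.459), while Jak1, Jak2 and Jak3 differed by -0.09, -0.16 and -0.22.

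Of the STAT genes, Stat2, which is interferon-inducible, was lower in all 4 pairs. It differed by -1.70, -0.91, -1.35 and -0.70 (mean -1.17, SE 0.44, limma adjusted p 0.462), and every STAT4-labelled array lay below every wild-type array. Stat3, Stat5a and Stat5b differed by 0.23, -0.18 and 0.27. Socs1, the feedback inhibitor that interferon-gamma induces, was lower in all 4 pairs (mean -0.60, SE 0.24, limma adjusted p 0.468). Socs2, Socs3, Cish, Pias1, Pias2, Ptpn2, Ptpn6 and Ptpn11 lay between -0.39 and 0.19.

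The 20 genes with a tested feature on each side of Stat4 held 0 called genes and 0 that were at least 2-fold apart in all 4 pairs, and 6 of the 40 had the same direction in all 4. Their median difference was 0.10. Around Stat6 the counts were 0, 0 and 3 of 40, with a median of 0.22, close to the median of all features. Over all features, 7.62% were higher and 4.42% lower in all 4 pairs.

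Among the genes at least 2-fold higher in all 4 pairs, Gdf3, a growth factor of the TGF-beta family, read -5.71, -5.56, -5.61 and -5.86 on wild type and -2.24, -2.88, -1.36 and -2.58 on the STAT4-labelled arrays (difference 3.42, SE 0.50, limma adjusted p 0.0978). Ubtd1, a ubiquitin-domain protein, differed by 2.86, 4.58, 2.44 and 3.05 (mean 3.23, SE 0.46, limma adjusted p 0.0978). Against the same wild-type arrays, the STAT6- and HDC-labelled arrays differed by 2.87 and 3.44 for Gdf3 and by 3.19 and 3.08 for Ubtd1. Raet1e, a ligand of the natural killer receptor NKG2D, differed by 3.12, 2.51, 2.02 and 1.48 and stood 3.23 above wild type on the STAT6-labelled but -0.20 below it on the HDC-labelled arrays. Rpl39l, a ribosomal protein paralogue, differed by 2.66, 1.32, 3.55 and 2.70, and Arl14epl by 1.40, 2.11, 1.55 and 1.93.

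X-linked genes made up 9 of the 25 named features on this side, where 3.72% of the 18664 named features tested lie on the X chromosome. Xist and the called gene Ctps2 were among them. Of the 9, Slx, Gm2012, Gm5168, Gm2030 and Gm4297 belong to multicopy families, whose probes may read the same transcripts. Gm2030 and Gm4297 were each well above background on 2 STAT4-labelled arrays and 0 wild-type arrays. Xlr, of the X-linked lymphocyte-regulated family, read -3.05, -3.26, -3.18 and -2.63 on wild type and -1.27, -0.38, -1.71 and -0.45 on the STAT4-labelled arrays (difference 2.08, SE 0.30, limma adjusted p 0.0978), with no overlap. Slx, Gm2012 and Gm5168, chosen after their values were seen, differed by 1.80, 1.80 and 1.72. Against the mean of the STAT6- and HDC-labelled arrays, on other slides, Xlr was 1.25 higher on the STAT4-labelled arrays (limma adjusted p 0.036), Slx 1.15 higher (0.036) and Gm5168 1.20 higher (0.033). In the high-fat pairs Xlr was higher by 2.88 and 2.18, and Xist by 2.45 and 1.46. The part of the Y-linked and Xist signals in these differences was not tested.

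Spleen and marrow were also read apart. In spleen, 3 features (0.0104%) were called, Oas1a and Ctps2 higher and Gm10421 lower, with 7160 higher and 715 lower at an unadjusted p under 0.05. The median difference over all features in spleen was itself 0.49. The spleen count moved with the settings. At an adjusted p just above the threshold lay many more, since 1197 features had an adjusted p under 0.06, 1139 of them higher, and 1730 were called when the wild-type spleen array on high-fat diet was left out. Taking the mean of the probes of a gene called 825, and testing all features without a filter called 1076. Without any 1 of the 7 other arrays, 1 to 4 features were called. In marrow 3 features (0.0104%) were called, the same genes as in spleen, with 192 higher and 206 lower at an unadjusted p under 0.05. Leaving out either marrow array on control diet gave 0 calls. Oas1f and H2-Q8 gave near-equal differences in spleen (4.89 and -3.82) and marrow (4.82 and -3.83) and missed the threshold in each tissue alone.

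The genotype difference in spleen minus that in marrow was tested in the same fit, and 0 features (0%) passed. At an unadjusted limma p under 0.05, 5092 features were above 0 and 333 below. The smallest adjusted p was 0.202, and the median over all features was itself 0.61. Every other setting run for this test also gave 0 calls. The genes with the smallest p were Fgf20, Rhox3a and Cfap100 on one side and Wdr95, Galnt6 and Dapl1 on the other. Dapl1 read 0.19 and 0.38 on the wild-type and -1.77 and -4.03 on the STAT4-labelled spleen arrays, against -5.93 and -6.46 and then -5.15 and -5.61 in marrow. Iigp1, an immunity-related GTPase, was lower by -4.04 and -4.23 in spleen and by -1.53 and -1.77 in marrow, and its tissue difference of -2.49 did not pass (limma adjusted p 0.222).

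The spleen pair on high-fat diet stood apart in its cell-type markers. The STAT4-labelled array of that pair correlated with the marrow arrays at a mean of 0.9696 and with the other spleen arrays at 0.9473, where the other 3 spleen arrays of these pairs correlated more closely with spleen. In that pair the natural killer cell list had a median difference of -4.58 over 15 genes, the mature B cell list -3.81 over 14, the T cell list -2.66 over 15, the conventional dendritic cell list -2.69 over 15 and the MHC class II list -2.84 over 13. The neutrophil primary granule list was at 2.61 over 8 genes and the cell cycle list at 1.90 over 25. The median over all features in the pair was 0.65. In pooled cells, fewer cells of a type and less RNA per cell cannot be told apart.

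Natural killer genes were lower in the other spleen pair too. Their mean level was 1.24 and 1.04 on the wild-type spleen arrays, -0.94 on the control-diet and -3.17 on the high-fat STAT4-labelled spleen array, and -3.19 to -2.23 on the 4 marrow arrays of these pairs. In spleen on control and high-fat diet it was -0.84 and -0.37 on the STAT6-labelled arrays. On the HDC-labelled spleen arrays it was 1.45 and -1.02, so the control-diet STAT4-labelled level was not particular to that label. Of the 15 genes, 14 were at least 2-fold lower in both spleen pairs (1.42% of all features were), and 0 were called. Ncr1, an activating receptor of natural killer cells, differed by -3.12 and -6.30 in spleen and 1.20 and 0.04 in marrow. Prf1, the pore-forming perforin, differed by -2.92 and -3.33 in spleen and -0.34 and 0.14 in marrow, and Eomes, a lineage factor, by -2.10 and -5.26 in spleen and 1.02 and 0.32 in marrow. All 15 genes were well above background on all 8 arrays. In marrow, where the natural killer list had medians of 0.82 and 0.20, the interferon-gamma list had medians of -1.57 and -0.88, and the part of the spleen natural killer signal in the spleen differences was not tested.

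The interleukin-12 response genes of T cells and natural killer cells had pair medians of -0.70, -2.56, 0.01 and 0.14. Of 17 tested, 7 were at least 2-fold lower in both spleen pairs (1.42% of all features were) and 0 in both marrow pairs (0.462%), and 0 were called. Tbx21, the T-bet factor that STAT4 induces, differed by -1.45 and -5.01 in spleen and 0.82 and 0.12 in marrow. Gzmb, a cytotoxic protease, differed by -2.30 and -4.47 in spleen and 0.51 and 0.73 in marrow. Classical monocyte genes had medians of -0.53, 0.59, -0.34 and -0.26 in the 4 pairs and mature neutrophil genes 0.19, 1.11, -0.28 and -0.19.

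**Figure D4:**
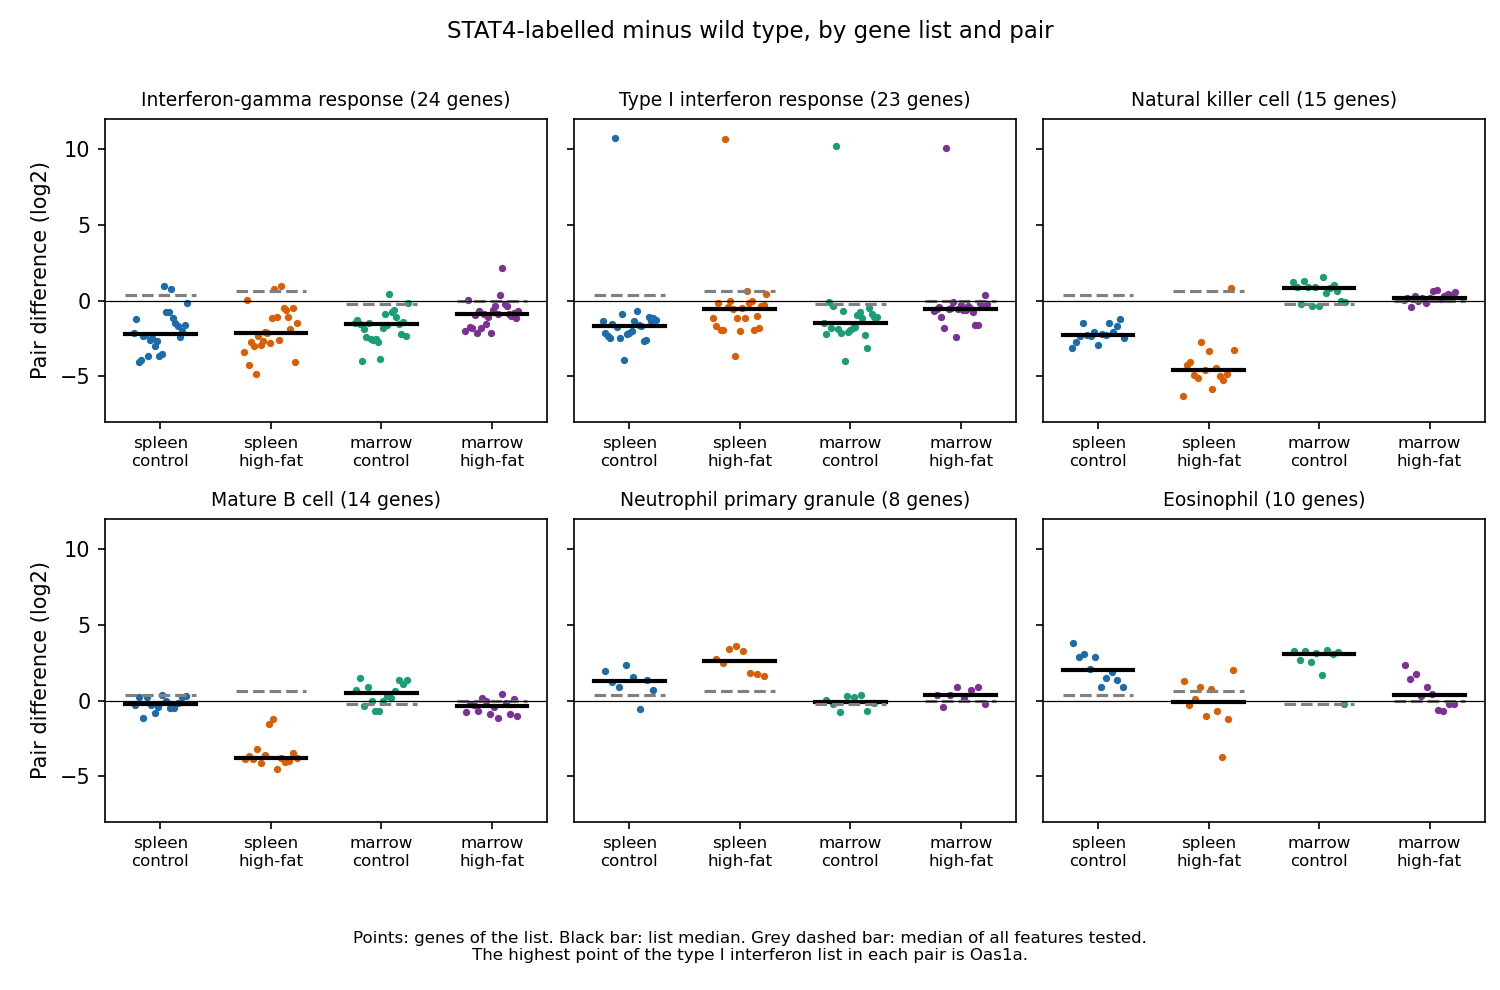
Pair differences (STAT4-labelled minus wild type, log2, vertical axis) of the genes of 6 lists in each of the 4 pairs (horizontal axis), with the list median as a black bar and the median of all features as a grey dashed bar. The interferon-gamma median is below 0 in each pair (-2.18, -2.13, -1.57 and -0.88), and the natural killer median is below 0 in spleen (-2.30 and -4.58) and above it in marrow (0.82 and 0.20).

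Did the difference between STAT4-labelled and wild-type cells depend on diet? No feature (0%) passed the test of the diet term, with 809 higher and 683 lower at an unadjusted p under 0.05 and a smallest adjusted p of 0.0714. Other settings of the same test called 4 features with a trended, robust prior and 3 with a stricter filter. Pam, an enzyme that amidates peptide hormones, read -4.81, -5.39, -4.34 and -4.03 on wild type and -4.62, 0.42, -4.49 and 0.71 on the STAT4-labelled arrays. The high-fat STAT4-labelled arrays alone were high, and the diet difference was 5.26 (limma adjusted p 0.0764). Mnd1, a meiotic recombination factor, had pair differences of 4.74 and 4.30 on high-fat diet and 0.43 and -0.52 on control diet (diet difference 4.56, limma adjusted p 0.399). These arrays were the ones on which Stat4 was high.

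Of the eosinophil genes, 0 of 10 were called in the test over both tissues. The list had medians of 1.99 in spleen and 3.08 in marrow on control diet, and -0.09 and 0.34 on high-fat diet. At least 2-fold higher were 8 of 10 genes in both control-diet pairs (1.8% of all features were) and 1 in both high-fat pairs (1.12%). Against the same wild-type arrays the median difference of the list was 1.62 on the STAT6-labelled arrays and -0.12 on the HDC-labelled ones. The mean level on control diet was 1.66 in spleen and 3.13 in marrow on the STAT4-labelled arrays and 1.53 and 2.54 on the STAT6-labelled arrays. Epx, eosinophil peroxidase, was higher by 3.82, 1.27, 3.28 and 2.37 (mean 2.68, SE 0.95, limma adjusted p 0.458). Prg2, the major basic protein, gave 2.87 and 2.66 on control diet and -0.30 and 1.39 on high-fat diet. Il5ra, the interleukin-5 receptor chain that eosinophils depend on, read -0.96, -0.77, -3.25 and -3.39 on wild type and 0.91, -4.50, -0.21 and -4.10 on the STAT4-labelled arrays (diet difference -4.67, limma adjusted p 0.399). The transcriptional corepressor Nab2 and the Wnt regulator Axin2 had diet differences of -4.06 and -3.66 (limma adjusted p 0.533 and 0.661). Nab2 is the first gene with a tested feature after Stat6 on the chromosome. The pair differences of Nab2 were 1.23, -3.41, 3.52 and 0.04. Stat6 was low on the same control-diet STAT4-labelled arrays, and whether the signals of these neighbours are linked was not tested. The Y-linked signal was low on the same control-diet arrays, and its part in the differences between control-diet and high-fat pairs was not tested. Over 20 alternative settings, including the Y-linked signal as a covariate, the eosinophil median over both tissues lay between 0.56 and 2.44.

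Of the remaining lists, none had a called member. Cell cycle genes had pair medians of 0.71, 1.90, 0.11 and 0.01 and a median of 0.76 over the 4 pairs. Of the 25, 8 were higher in all 4 pairs (7.62% of all features were) and 4 higher at an unadjusted limma p under 0.05 (8.56%). Erythroid genes had pair medians of 1.48, -0.24, 1.17 and 1.87 and an overall median of 1.06. Against the same wild-type arrays the erythroid median was 1.69 on the STAT6-labelled and 0.80 on the HDC-labelled arrays. On the STAT4-labelled arrays the overall median was -0.43 for inflammatory cytokine and chemokine genes and -0.07 for genes of the interleukin-4 and STAT6 response. The last list held Mgl2, a lectin of alternatively activated macrophages, at -0.88 (SE 0.29, limma adjusted p 0.441) and Retnla at 0.46 (SE 0.57). The alternative-activation marker Arg1 was well above background on 0 STAT4-labelled arrays and 1 wild-type array.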

How the data were processed

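The deposited files hold intensity values: per the file headers, Agilent Feature Extraction 11.0.1.1 was run with the one-colour protocol GE1_1100_Jul11 on Cy3-labelled RNA, which writes a background-subtracted, spatially corrected signal with no scaling between arrays, and the array design refers to mm9. Groups came from the labels alone. The deposited signals were log2-transformed here and shifted by each array's own 75th percentile. Spots marked as outliers were dropped, the rest averaged by probe, and 305 probes without a usable spot on some array were left out, the only Hdc probe among them. Symbols came from RefSeq accessions (27234 of 39429 probes, 69.1%). The brightest probe stood for a gene, and features not well above background on 2 or more of the 16 arrays were removed, leaving 28781 features, 18664 with a symbol.

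Comparisons used limma 3.58.1 in R 4.3.3 over 16 arrays, modelling 8 genotype-by-tissue means plus a tissue-specific diet effect (6 residual degrees of freedom). Diet differences used all pairwise terms (3 residual degrees of freedom). Tests were two-sided, with Benjamini-Hochberg adjustment over all features. Each group is 1 pool, so the 4 pairs stand in for replicates. In the main fit the p-values measure how the diet difference varied between the labelled genotypes within a tissue. How far the spleen pairs differed from the marrow pairs does not enter them, nor does the spread between mice. The fit was tested on simulated data.

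Members, the 33 gene lists and the rules were chosen with earlier results of these data known. Named genes were those called and of 1 direction across the pairs (up to 15 a side, or the 5 smallest p), up to 10 a side at least 2-fold apart in all 4 pairs, and up to 5 a side for each tissue and for tissue and diet differences (or the 3 smallest p). All of these had a higher arm well above background. Without that condition, all genes of the interleukin-12, receptor, Janus kinase, STAT and feedback lists could be named, and up to 4 of each other list by size of difference. Any other gene named was chosen after its values were seen. Comparisons with the STAT6- and HDC-labelled arrays and counts over subsets of pairs were added after seeing the data. Figures were drawn with matplotlib 3.10.9. Alternatives tried were other scalings, background correction, filters, probe rules, priors and designs, and leaving out arrays or diets. One gene of the lists is not reported here by name.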

Additional observations from a re-analysis of the deposited data

Results flagged for a closer look

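A total of 71 sets of 4 pair differences were checked for 1 pair far from the other 3, and 5 stood out, where chance gives about 1 in 20. In each of the 5 it was the spleen pair on high-fat diet. Its median pair difference was -2.84 for MHC class II presentation, -2.79 for plasma cell genes, -1.83 for plasmacytoid dendritic cell genes and -1.17 for the interleukin-12 and interleukin-18 ligands, and for Gbp4 the difference was -4.84.

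In 7 of 33 lists both spleen pairs had a median on one side of 0 and both marrow pairs on the other, a difference that was not tested for the lists. The means of the medians were -3.44 in spleen and 0.51 in marrow for natural killer genes, -1.63 and 0.08 for interleukin-12 response genes of T and natural killer cells, and -1.61 and 0.37 for basophil and mast cell genes. For conventional dendritic cell genes they were -1.49 and 0.26, for stem and progenitor genes -0.33 and 0.36, for mature neutrophil genes 0.65 and -0.24 and for neutrophil secondary granule genes 0.80 and -0.32.

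In 4 of the 33 lists the diets took opposite sides, again untested. The means were -0.33 on control and 0.27 on high-fat diet for the interleukin-12, interleukin-23, interleukin-18 and interferon receptors, -0.54 and 0.08 for the Janus kinases, -0.44 and 0.20 for the STAT factors and 0.78 and -0.08 for red pulp macrophage genes. Some of these values are small. How many lists random signs would place on opposite sides was not worked out, for diets or for tissues.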

How the results depend on the processing

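The count over both tissues (5) went to 1 with the 8 arrays alone and the pair as a block, 18 with genotype terms shared by both tissues, 53 with a covariate for Y-linked signal, 3 after normexp and quantile normalization, and 0 without the control-diet or without the high-fat pairs, and ran from 3 to 6 with 1 array left out. The spleen count (3) became 825 with the mean of probes, 1076 with no filter, 6942 with the Y-linked covariate, 0 without the control-diet or high-fat pairs, and 1 to 1730 with 1 array left out. The marrow count (3) became 0 without either kind of pair and 0 to 4 with 1 array left out. The diet count (0) became 4 with a trended, robust prior and 3 with a stricter filter. Features at least 2-fold apart in every pair (36 higher, 61 lower) became 12 and 38 after normexp, 322 and 141 without the control-diet pairs, 517 and 284 without the high-fat pairs, and 44 to 231 and 67 to 112 with 1 pair left out.

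The alternatives were run for 21 of the named genes, and none of these reversed. Of 420 combinations of these genes and 20 settings, 383 kept their side of the threshold, 26 lost a call and 11 gained one. The interferon-gamma median stayed between -2.24 and -1.5. The mean differences of Stat4 (1.09) and Stat6 (-0.49), which passed no test, changed sign with the diets kept. For Stat4 it was 2.44 without the control-diet pairs and -0.26 without the high-fat pairs, and for Stat6 0.25 and -1.23. Slide as a random block could not be fitted, since the genotype and tissue terms already hold the slides. The normexp alternative used median signals in place of the planned means. No paired analysis by replicate number was possible because each group has 1 array. With 1 pool per group, the number of arrays limits every estimate, and genes not well above background have bounds only.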
